A study of Mus musculus with 24 samples.

Results

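Whole lungs of mice were compared according to how much skeletal muscle RNA their arrays showed. All 12 lung arrays of the series were used, of 24 arrays in all, and each was scored by 5 genes of fast skeletal muscle, Myh4, Actn3, Mylpf, Tnnt3 and Pvalb. The score was the mean of the 5 log2 values, each centred on its mean over the 12 lung arrays. The 5 arrays with a score above 1 are called high-score arrays here, and the other 7 low-score arrays. The arrays were thus chosen by measured values of these 5 genes, so every difference between high-score and low-score arrays is a description, and no test is given for it.

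The mice were of strain CD-1, 20 weeks old and labelled male. They were wild type or dnCREB, a model of cardiac failure in which the alpha myosin heavy chain promoter of cardiomyocytes drives dominant negative CREB1, a blocked version of a transcription factor. Particulate matter (PM) was given at 20 mg/kg with particles of 1.9 µm and the lung was taken at 36 h, while control mice received phosphate-buffered saline (PBS). That made 4 lung groups of 3 arrays, named WT-PBS, WT-PM, dnCREB-PBS and dnCREB-PM, and arrays are cited by group and replicate number. The labels speak of groups of n = 3 animals, so p-values below measure the spread between these animals' lung samples.

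The authors deposited log2 expression per probe set, and where a gene had several probe sets the brightest one, by its mean across the 24 arrays, stood for it. The arrays' median value lay between 4.09 and 4.19, and a value under 4 is treated here as not measured above background. Of 18193 genes, 11600 exceeded 4 in at least 3 lung arrays and were compared. Correlations between pairs of lung arrays ran from 0.951 to 0.996, with 0 identical pairs. Xist, the RNA of the inactive X chromosome, was high in 6 lung arrays and the Y-linked Eif2s3y in 4, with neither in the other 2, although all animals were labelled male. Of the 5 high-score arrays, 2 had high Xist, and dnCREB-PBS 1 and dnCREB-PBS 3 were the 2 arrays with neither. Eif2s3y was high in all WT-PBS arrays and in WT-PM 2, and in no dnCREB array.

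Skeletal muscle is made of fibres packed with sarcomeres, in which myosin filaments pull on actin filaments when calcium binds the troponin complex. Fast and slow fibres use different genes for the same parts, so the set of isoforms present tells one kind of muscle from another and from heart muscle. Stratified squamous epithelium, which lines the mouth, oesophagus and skin, renews itself from a basal layer with keratins Krt5 and Krt14. Its cells switch to other keratins as they move up, Krt4 and Krt13 in the moist inner linings and Krt1 and Krt10 in skin. The alveoli of the lung contain neither tissue, while fat and heart muscle lie close to the lung in the chest.

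**Figure D1:**
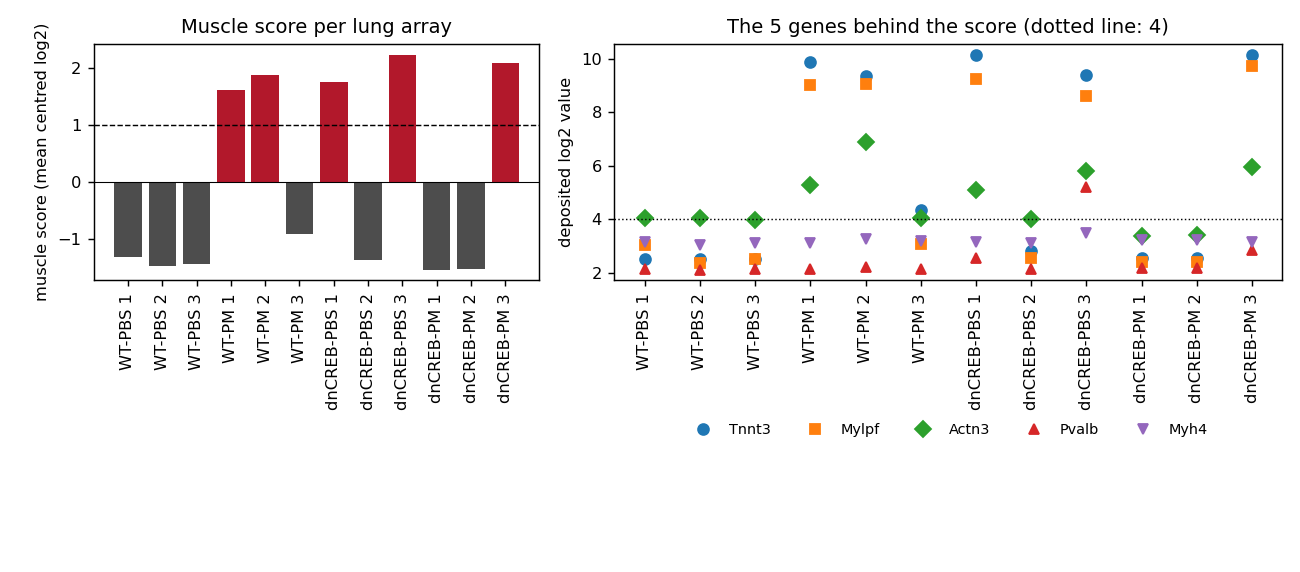
The left plot gives the muscle score of each lung array as a bar (mean of centred log2 values; dashed line at the threshold of 1; red bars are high-score arrays, grey bars low-score arrays). The right plot gives the deposited log2 value of the 5 score genes in every array; Tnnt3 and Mylpf reach 8.60 to 10.15 in the high-score arrays, and Myh4 stays under 4 in all 12.

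The scores fell into separate ranges. They were -1.31, -1.47 and -1.43 in the WT-PBS arrays, 1.60, 1.87 and -0.91 in the WT-PM arrays, 1.75, -1.36 and 2.22 in the dnCREB-PBS arrays, and -1.53, -1.53 and 2.09 in the dnCREB-PM arrays. The high-score arrays were therefore 0 of 3 in WT-PBS, 2 of 3 in WT-PM, 2 of 3 in dnCREB-PBS and 1 of 3 in dnCREB-PM. The lowest score inside the high-score arrays was 1.60, of WT-PM 1, and the highest outside was -0.91, of WT-PM 3.

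Of the 5 score genes, 3 carried the separation. Tnnt3, the fast isoform of the troponin subunit that binds tropomyosin, stood at 9.89, 9.34, 10.15, 9.40 and 10.15 in WT-PM 1, WT-PM 2, dnCREB-PBS 1, dnCREB-PBS 3 and dnCREB-PM 3. In the low-score arrays it lay between 2.51 and 2.83 in 6 arrays and at 4.36 in WT-PM 3. Mylpf, the regulatory light chain of fast myosin, ran from 8.60 to 9.72 in the high-score arrays and from 2.37 to 3.08 in the others. Actn3, the alpha-actinin of fast Z-discs, ran from 5.08 to 6.88 against 3.39 to 4.06.

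The other 2 score genes did not follow. Myh4, the fastest myosin heavy chain of limb muscle (type IIb), lay between 3.04 and 3.51 in all 12 arrays, under the background level, and so did its other probe set, between 3.27 and 3.83. Pvalb, the calcium buffer of the fastest fibres, reached 5.22 in dnCREB-PBS 3 and lay between 2.12 and 2.86 in the other 11 arrays. The score thus rests on Tnnt3, Mylpf and Actn3, and the arrays are called by their score because the markers did not all behave as the name skeletal muscle would have them. A score from those 3 genes alone, added after the data were seen, gave the same 5 arrays. The 3 genes were kept because they separate these arrays, so that outcome was fixed in advance and lends the grouping no support.

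A gene was counted as higher when the mean of the 5 high-score arrays exceeded that of the 7 low-score arrays by at least 1 log2 unit and no array of one side overlapped the other. That held for 72 of 11600 genes (0.621%), and 1 gene (0.00862%) was lower by the same measure. The median difference over all 11600 genes was -0.02 log2 units. Differences are of the values as deposited, so where the low-score arrays lay under 4 their size is not measured. With low-score values under 4 raised to 4, which makes each difference a lower bound, 63 of the 72 still reached 1 log2 unit. Of the 72, 39 lay under 4 in all 7 low-score arrays, so they entered the comparison only through the high-score arrays. The same holds for genes over 4 in too few low-score arrays to pass the filter, so the full number is larger. Tnnc2, Tnni2, Tnnt3 and Myh1, over 4 in WT-PM 3 alone among the low-score arrays, are examples. The 72 were made up of 3 score genes, 23 members of other muscle lists, 15 members of squamous epithelium lists, 2 members of other lists and 29 genes in no list. The gene that was lower was Hspa12b, a heat shock protein of endothelium, at 5.88 to 7.86 in the high-score and 7.90 to 8.80 in the low-score arrays. As the tissue was taken whole, more cells of a type and more RNA per cell cannot be told apart.

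**Figure D2:**
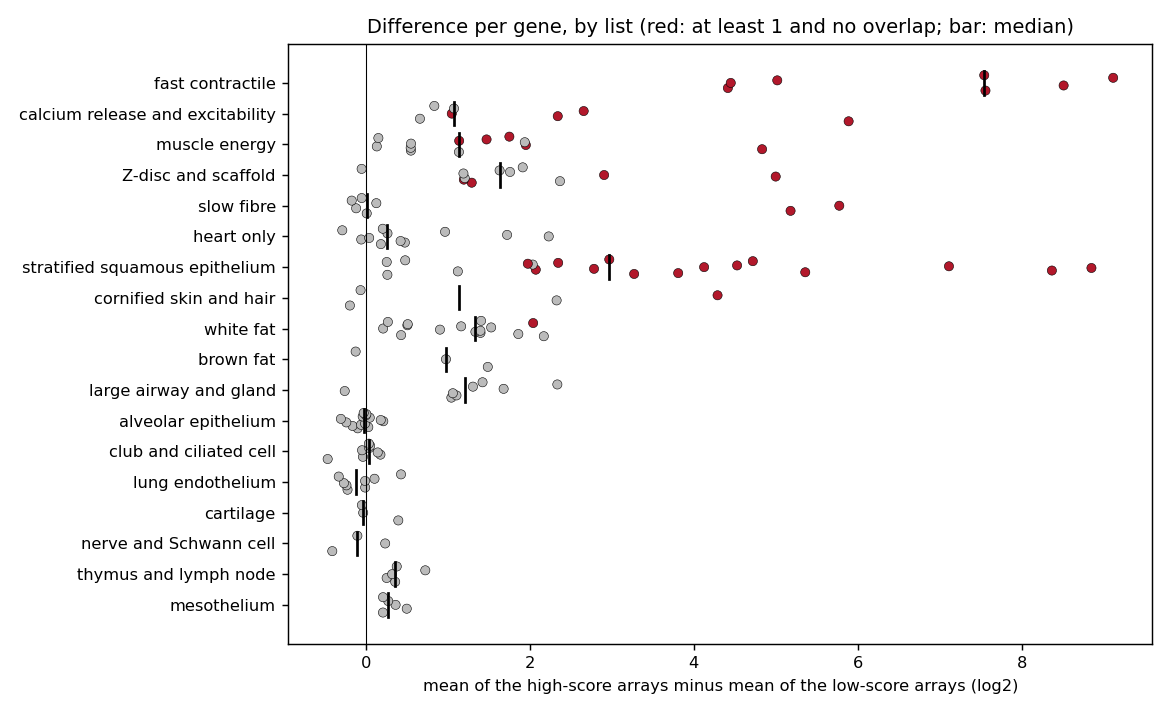
Each point is a gene that passed the filter, placed by the mean of the 5 high-score arrays minus the mean of the 7 low-score arrays (x axis, log2) and by its list (y axis); red points differed by at least 1 without overlap, and the black bar is the list's median. The fast contractile list has its median at 7.54 and the squamous list at 2.97, while the alveolar list lies at -0.02 and the lung endothelium list at -0.12.

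The contractile machinery of fast fibres was higher in every member that passed the filter, 7 of the 9 genes listed. Their median difference was 7.54 log2 units as deposited and at least 6.41 with low-score values raised to 4, where the members ran from 3.25 to 7.55. The other 2, Myh2 and Mylk2, did not pass it. Tnnc2, Tnni2, Myh1, Mybpc2 and Neb passed the filter only through the high-score arrays, so their being higher was largely fixed in advance. Tnnc2, the calcium-binding troponin subunit of fast fibres, had 11.71, 11.20, 11.99, 11.29 and 11.97 in the high-score arrays in the order given above. In the low-score arrays it lay between 1.88 and 2.46, except for 4.89 in WT-PM 3. Tnni2, the inhibitory troponin subunit, ran from 10.15 to 10.98 against 2.55 to 5.51, again with WT-PM 3 as the highest low-score array. With Tnnt3, all 3 subunits of the fast troponin complex were thus far above background in the high-score arrays.

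Thin and thick filament genes gave the same picture. Acta1, skeletal alpha-actin, ran from 13.49 to 14.22 in the high-score and from 5.35 to 8.17 in the low-score arrays. Neb, nebulin, the ruler of the thin filament, ran from 6.75 to 8.70 against 2.77 to 2.95, at least 14.8-fold higher. Such lower bounds set the mean of the high-score arrays against the background level of 4. Myl1, an essential light chain, differed by 4.45 log2 units, and Mybpc2, the fast myosin binding protein C, ran from 6.46 to 8.20 against 1.95 to 4.92.

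Among the myosin heavy chains, which sit side by side on chromosome 11, the probe sets of Myh1 and Myh8 were high and those of Myh4 were not. Myh1, the type IIx chain, had 12.17, 11.78, 12.25, 11.46 and 11.96 in the high-score arrays, 7.00 in WT-PM 3 and 2.65 to 3.07 in the other 6. Myh8, known as the perinatal chain and found in adults in a few specialised head muscles, had 11.62, 10.89, 11.42, 10.30 and 11.88 against 3.15 to 3.41. That made Myh8 at least 149-fold higher, with WT-PM 3 at 3.31 and thus among the low values. Like Myh1, it passed the filter only through the high-score arrays. Myh2, the type IIa chain, was above 4 in dnCREB-PBS 3 alone, at 4.85, and Myh3, the embryonic chain, was at 3.05 to 3.41 in all arrays. The Myh1 values are uncertain as to which chain they measure, because the genes are near copies of each other and its probe set is of a kind that can bind related transcripts. Another Myh1 probe set ran from 10.56 to 11.64 against 2.10 to 6.39, and the remaining one stayed between 2.41 and 2.53 in all arrays.

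The promoters of Myh1, Myh4 and Myh8 are shown because the probe sets of these neighbouring genes differed in level. Whether the Myh4 probe sets detect its RNA was not tested. Their start sites follow each other over 37.7 kb from Myh1 to Myh4 and 39.3 kb from Myh4 to Myh8. The sequences are from RefSeq (GRCm38.p6, plus strand) and run from 250 bases before to 50 bases after the start, at chr11:67199852-67200151, chr11:67237562-67237861 and chr11:67276874-67277173. Capitals mark matches on either strand to TATAAA, to CAGCTG (an E-box of the kind bound by muscle regulatory factors), to TGANTCA (the AP-1 motif) and to the MEF2 motif.
Myh1: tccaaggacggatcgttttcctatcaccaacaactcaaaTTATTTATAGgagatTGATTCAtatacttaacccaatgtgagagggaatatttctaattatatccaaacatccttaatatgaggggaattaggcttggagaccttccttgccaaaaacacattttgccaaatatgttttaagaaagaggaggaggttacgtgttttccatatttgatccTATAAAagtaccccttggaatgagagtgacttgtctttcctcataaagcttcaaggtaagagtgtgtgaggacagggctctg
Myh4: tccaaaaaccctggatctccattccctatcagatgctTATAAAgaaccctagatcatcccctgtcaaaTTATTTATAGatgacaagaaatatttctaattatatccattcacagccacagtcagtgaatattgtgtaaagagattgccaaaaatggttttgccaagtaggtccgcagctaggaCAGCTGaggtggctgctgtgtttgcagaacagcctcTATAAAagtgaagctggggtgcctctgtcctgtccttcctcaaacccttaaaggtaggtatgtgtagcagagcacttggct
Myh8: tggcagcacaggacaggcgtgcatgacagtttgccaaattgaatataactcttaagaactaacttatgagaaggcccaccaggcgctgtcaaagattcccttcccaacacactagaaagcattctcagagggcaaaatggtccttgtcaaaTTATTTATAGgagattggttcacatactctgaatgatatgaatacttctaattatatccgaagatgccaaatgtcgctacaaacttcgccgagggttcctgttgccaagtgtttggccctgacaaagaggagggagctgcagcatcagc
All 3 promoters held the same MEF2 match, TTATTTATAG, which includes a reversed TATAAA, and it began 211, 182 and 99 bases before the start. Myh4, whose probe sets stayed under 4, thus shared this match with its neighbours, and it was the one of the 3 with a CAGCTG. Of the 26 higher muscle genes, score genes included, 19 had a promoter entry, with 23 promoters. CAGCTG was in 10 of these (43.5%), against 16.3% of all 32851 promoters, and the MEF2 motif in 3 (13%) against 3.19%. These are matches of letters and say nothing of binding.

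Genes of calcium release were higher in part. Of 7 calcium release and excitability genes that passed the filter, 4 were higher, with a list median of 1.08. Atp2a1, the calcium pump of fast fibres, had 9.14, 8.82, 9.28, 8.82 and 9.21 against 2.72 to 3.88, at least 33.2-fold higher. Ryr1, the calcium release channel of skeletal muscle, ran from 5.23 to 6.70 against 3.20 to 3.90, and Casq1, the calcium store protein of fast fibres, from 5.06 to 5.84 against 3.01 to 3.16. Jph1, which ties the calcium store to the cell membrane, ran from 3.96 to 5.37 against 3.47 to 3.86. All 4 were under 4 in every low-score array and passed the filter only through the high-score arrays. Their being higher was thus largely fixed in advance. The voltage sensor Cacna1s ran from 3.74 to 4.41 against 3.29 to 3.50, without overlap but under the size required.

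Energy and Z-disc genes were higher in part. Of 12 muscle energy genes, 5 were higher, with a list median of 1.14: Ckm, muscle creatine kinase, by 4.83, and Eno3, Pygm, Pgam2 and Pfkm, enzymes of glycogen and sugar breakdown, by 1.14 to 1.95. Of 11 Z-disc and scaffold genes, 4 were higher, with a median of 1.63. Myot, myotilin of the Z-disc, ran from 6.59 to 7.85 against 2.15 to 2.31, at least 9.33-fold higher. Myoz1, a calcineurin-binding protein of fast Z-discs, ran from 4.24 to 6.13 against 2.51 to 2.70. Myot and Myoz1 passed the filter only through the high-score arrays. The giant spring protein gene Ttn differed by 1.91, with ranges of 10.35 to 12.95 and 9.04 to 10.52 that overlapped.

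Slow fibre genes gave 2 of 7 higher and a list median of 0.01. Mybpc1, slow myosin binding protein C, ran from 6.33 to 7.78 against 2.04 to 2.12, and Myl3, a light chain of slow and ventricular myosin, from 9.35 to 10.25 against 2.52 to 7.63. Mybpc1 passed the filter only through the high-score arrays. The defining chains did not follow: Myh7, the slow myosin, differed by -0.12 and Tnnc1, the slow and cardiac troponin, by -0.17. Their means in the 4 lung groups were already high, 8.20 to 8.62 for Myh7 and 8.72 to 9.86 for Tnnc1. A small added amount from slow fibres might therefore not show. Slow troponin Tnni1 was under 4 in all 12 arrays. Genes of the neuromuscular junction and of satellite cells, the stem cells of muscle, were under 4 in all arrays for 13 of 14. Those 13 included Pax7 and the acetylcholine receptor subunit Chrna1.

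Heart muscle genes did not separate the arrays. Of 11 heart-only genes, 0 were higher and the median difference was 0.26, with Myh6, the alpha myosin of heart, at 11.38 to 13.66 in the high-score and 10.69 to 12.24 in the low-score arrays. Levels in the 12 left ventricle arrays, normalized apart from the lung arrays, were compared only with the level of 4. The median of those arrays was lower than in lung, 3.25 to 3.37, and other parts of the heart were not measured. Of the 26 higher muscle genes, score genes included, 10 were under 4 in all 12 heart arrays. They included Tnnc2 (1.92 to 2.03), Tnni2 (2.64 to 2.76), Tnnt3 (2.63 to 2.77), Mylpf (2.52 to 2.96), Myh1 (2.81 to 2.96), Mybpc1 (2.03 to 2.11) and Atp2a1 (2.30 to 2.44).

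Genes of stratified squamous epithelium were higher in the same arrays. Of 19 that passed the filter 14 were higher, with a median of 2.97 as deposited and at least 1.63 with low-score values raised to 4, and 9 of the 13 that did not pass were under 4 in every array. The count includes genes under 4 in a high-score array, such as Sprr3, Cnfn and Tgm3 in dnCREB-PM 3 and Krt14 in dnCREB-PBS 3. There the lack of overlap was not measured above background. Of the 15 higher genes of both squamous lists, 12 were under 4 in all 7 low-score arrays. Those 12 passed the filter only through the high-score arrays. Krt4, a keratin of the layers above the basal one in moist linings, had 11.74, 13.03, 12.49, 11.59 and 10.17 in the high-score arrays against 2.83 to 3.04, at least 223-fold higher. Its partner Krt13 had 10.89, 12.34, 11.93, 11.03 and 8.46 against 2.49 to 2.62, at least 122-fold higher. The probe set of Krt4 is also of a kind that can bind related transcripts, and its other probe set ran from 7.49 to 11.58 against 1.74 to 1.79. Krtdap, a secreted protein of differentiating keratinocytes, was at least 52.1-fold higher. Unlike Myh1, Krt4 and Krt13 were not raised in WT-PM 3, at 2.94 and 2.58.

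Genes of the cornified envelope, the cross-linked shell of the uppermost cells, were higher as well. Lor, loricrin, ran from 7.34 to 11.39 against 5.56 to 6.57, and Crct1, Sprr3 and Cnfn were at least 14.1-fold, 6.94-fold and 3.09-fold higher. Basal genes were higher too: Krt5 ran from 6.53 to 8.26 against 3.22 to 3.50, and Krt15 from 4.13 to 5.65 against 1.84 to 2.18. Most keratins of skin and hair were not above background. Krt1, Krt2, Krt77, Krt71, Krt25, Krt27 and Krt31 were under 4 in all 12 arrays, as was filaggrin (Flg), while Krt10 was above 4 in all arrays and differed by -0.19. Krt6a, Krt6b and Krt17, keratins of stressed skin and hair follicle, were also under 4 throughout, and so was the basal regulator Trp63. Late cornified envelope genes went the other way. Lce1a1 of the skin and hair list differed by 2.33 with overlap, and Lce1d, Lce1f and Lce1b, in no list, were higher by 3.09, 2.63 and 1.91.

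**Figure D3:**
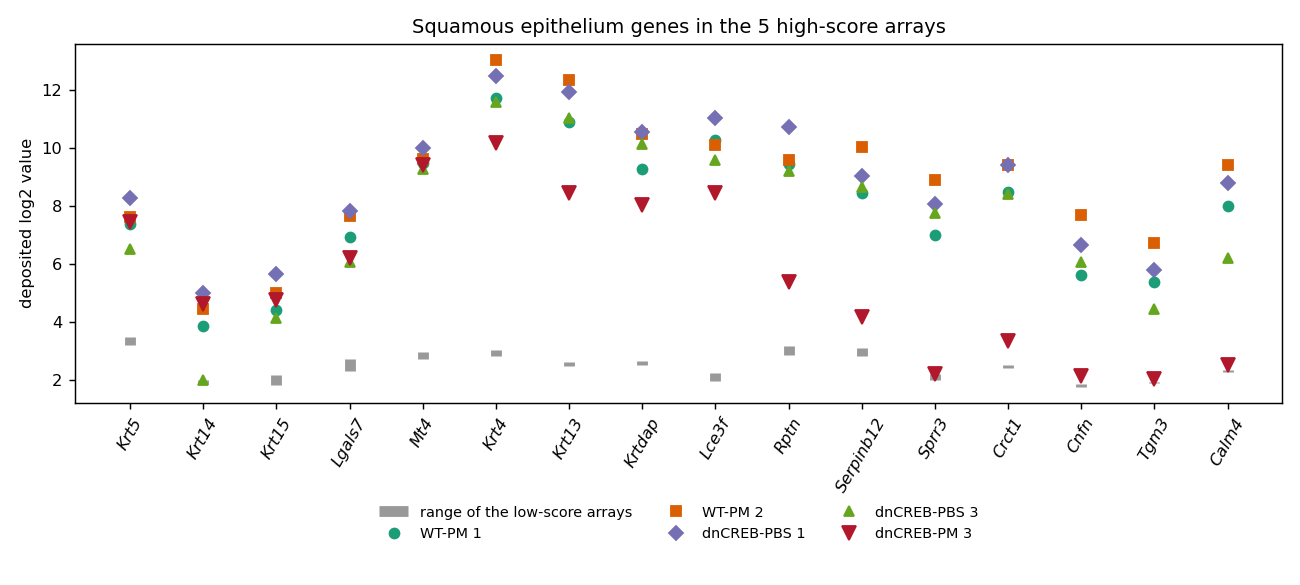
Points give the deposited log2 value (y axis) of 16 epithelial genes (x axis) in each of the 5 high-score arrays, and grey bars the range of the 7 low-score arrays. The large red triangles of dnCREB-PM 3 lie with the other arrays for Krt5, Krt15 and Mt4, and near the grey bars for Sprr3, Cnfn, Tgm3 and Calm4.

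The high-score arrays did not carry the squamous genes in equal measure. The lowest high-score value was that of dnCREB-PM 3 for 11 of the 15 higher squamous genes and that of dnCREB-PBS 3 for the other 4. In dnCREB-PM 3, 6 of the 15 lay within 1 log2 unit of the highest low-score array. Sprr3, a small proline-rich protein of the envelope, had 7.01, 8.91, 8.06 and 7.78 in the other high-score arrays and 2.21 in dnCREB-PM 3, where the low-score arrays ran from 2.01 to 2.21. Cnfn had 2.12 there against 5.63 to 7.68, and Tgm3, a cross-linking enzyme, 2.02 against 4.46 to 6.72. Basal genes were not reduced in that array: Krt5 stood at 7.44 and Krt14 at 4.61, inside the range of the other high-score arrays. Krt14 in turn was at 2.00 in dnCREB-PBS 3, just above the highest low-score value of 1.99. Over the 15 genes dnCREB-PM 3 differed from the mean of the other 4 high-score arrays by a median of -2.08 log2 units as deposited, against 0.43 over the 26 muscle genes. Both are descriptions of 1 array.

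The promoters of Krtdap and Sprr3 are shown because the genes parted in dnCREB-PM 3, where Krtdap kept a value of 8.04. They lie on the plus strand at chr7:30787655-30787954 and on the minus strand at chr3:92458671-92458970 (RefSeq, GRCm38.p6), with the same motifs in capitals.
Krtdap: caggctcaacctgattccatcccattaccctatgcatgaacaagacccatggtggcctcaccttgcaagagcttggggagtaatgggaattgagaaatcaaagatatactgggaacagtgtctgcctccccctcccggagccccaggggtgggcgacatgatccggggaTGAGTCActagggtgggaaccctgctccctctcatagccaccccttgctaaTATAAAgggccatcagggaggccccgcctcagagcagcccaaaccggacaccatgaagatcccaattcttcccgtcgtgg
Sprr3: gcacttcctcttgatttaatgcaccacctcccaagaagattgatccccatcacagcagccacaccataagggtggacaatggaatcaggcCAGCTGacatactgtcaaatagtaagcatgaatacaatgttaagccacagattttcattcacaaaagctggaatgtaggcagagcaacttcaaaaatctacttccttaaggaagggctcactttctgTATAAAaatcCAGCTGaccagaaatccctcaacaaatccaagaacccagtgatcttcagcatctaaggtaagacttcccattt
Both held a TATAAA just before the start, Krtdap held TGANTCA and Sprr3 held CAGCTG at 2 places. Of the 15 higher squamous genes, 10 had an entry, with 11 promoters. TGANTCA was in 5 of these (45.5%), against 7.81% of all promoters and 3 of the 23 muscle promoters. TATAAA on the sense strand, 45 to 16 bases before the start, was in 4 (36.4%) against 2.14% of all. The MEF2 motif was in 0 of the 11.

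Of the 72 higher genes, 29 were in no list, and several are known from the same tissues. Lce3f, a late cornified envelope protein, had 10.29, 10.12, 11.06, 9.58 and 8.44 against 1.96 to 2.23, at least 59.6-fold higher. Mt4, the metallothionein of squamous epithelium, ran from 9.27 to 10.01 against 2.74 to 2.96 and was as high in dnCREB-PM 3 (9.42) as elsewhere. Rptn, repetin of the envelope, and Serpinb12, an epithelial protease inhibitor, were at least 29.3-fold and 16.9-fold higher, with dnCREB-PM 3 lowest at 5.37 and 4.17. Ada, adenosine deaminase, ran from 7.50 to 11.77 against 4.60 to 6.51. Apobec2 and Cmya5, both known from striated muscle, differed by 4.07 and 2.72 and were higher in dnCREB-PM 3 than in WT-PM 2. Ighm, the heavy chain of IgM, differed by 1.75, from 10.75 to 12.02 against 8.66 to 10.63.

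Fat did not follow the score in the same way. All 15 white fat genes that passed the filter had positive differences, with a median of 1.34, but 1 was higher without overlap: Retn, the adipocyte hormone resistin, at 6.33, 4.99, 8.45, 5.84 and 5.16 against 3.36 to 4.73. Adipoq, adiponectin, had 9.47, 8.83, 11.44, 9.25 and 8.39 in the high-score arrays and 3.56 to 8.58 in the others, so the groups overlapped. Among the low-score arrays WT-PBS 3 was lowest for Adipoq. The highest white fat score of any array was 2.22 in dnCREB-PBS 1, and the other 4 high-score arrays lay between -0.01 and 0.53. Cyp2e1, a drug-metabolising enzyme kept in the liver list, was also higher, at 9.57 to 11.35 against 7.15 to 9.13, while albumin (Alb) and 8 further liver genes were under 4 in all arrays.

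Lists of lung cell types had medians near 0, apart from the large airways. Of 14 alveolar epithelium genes 0 were counted as higher or lower, with a median of -0.02, and Sftpc, surfactant protein C, ran from 15.19 to 15.36 against 15.09 to 15.44. Of 8 club and ciliated cell genes 0 were counted (median 0.04), and likewise 0 of 8 lung endothelium genes (median -0.12). Large airway and gland genes had a median of 1.21 with 0 of 8 higher without overlap. Reg3g, an antimicrobial lectin of airway epithelium, ran from 8.63 to 10.79 against 5.74 to 9.25. Cartilage, nerve, bone and mesothelium lists each gave 0 higher genes, with medians from -0.10 to 0.27, and of the 5 thyroid and parathyroid genes measured all were under 4 in every array.

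**Figure D4:**
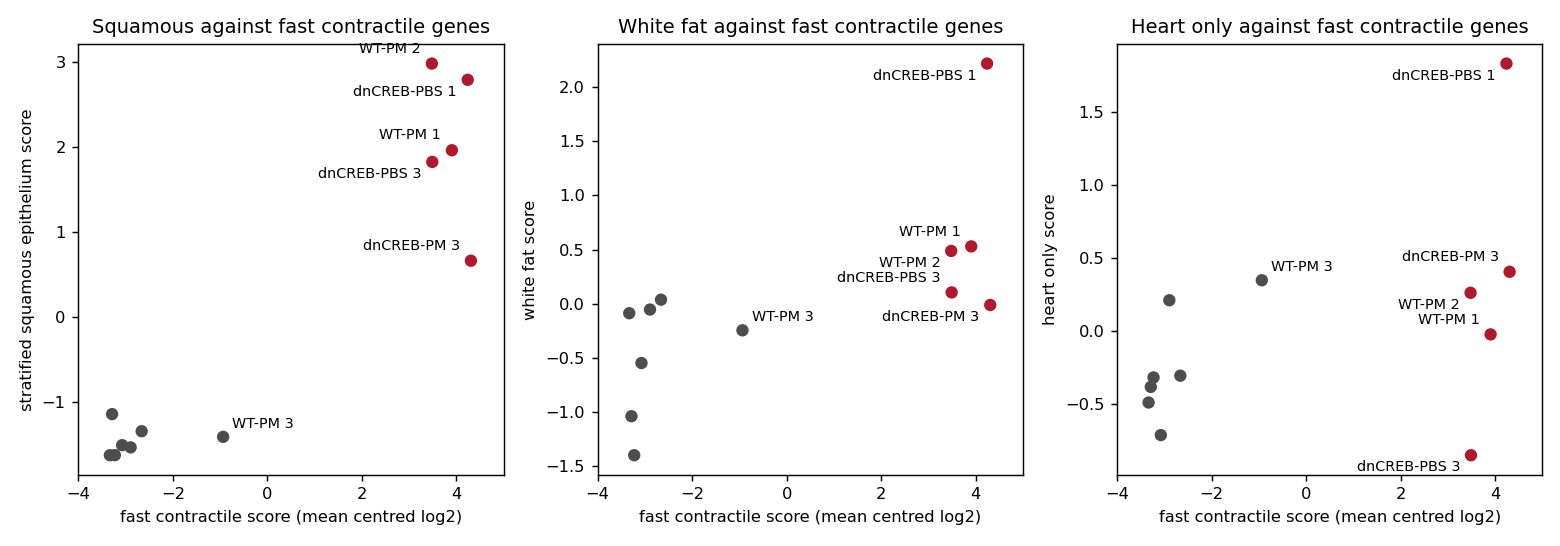
Each point is a lung array (red, high-score; grey, low-score), placed by the mean centred log2 value of the 7 fast contractile genes (x axis) and of the squamous, white fat or heart-only genes (y axis of the left, middle and right plot). The squamous score separates the high-score arrays from the low-score ones, with dnCREB-PM 3 lowest of them at 0.66, while dnCREB-PBS 1 stands alone at 2.22 for white fat and 1.84 for heart-only genes. Most fast contractile and squamous genes passed the filter only through the high-score arrays, so their separation was largely fixed in advance.

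Muscle and squamous RNA thus varied together between the 2 kinds of array and apart within them. Among the high-score arrays the fast contractile score was 4.31 in dnCREB-PM 3, 4.24 in dnCREB-PBS 1, 3.90 in WT-PM 1, 3.49 in dnCREB-PBS 3 and 3.48 in WT-PM 2. The squamous score took another order: 2.98 in WT-PM 2, 2.79 in dnCREB-PBS 1, 1.96 in WT-PM 1, 1.82 in dnCREB-PBS 3 and 0.66 in dnCREB-PM 3. Among the low-score arrays WT-PM 3 stood apart in its fast contractile score, -0.94 where the other 6 lay between -3.33 and -2.66. Its calcium release, muscle energy, Z-disc and slow fibre scores did not stand apart, at -0.73, -0.60, -0.79 and -1.03. Of the 26 higher muscle genes, 6 were there at least 1 log2 unit above the mean of the other 6 low-score arrays. Its bone score, of 3 genes, was the highest of the 12 arrays, at 1.36. Its squamous score of -1.41 lay within the range of the other 6, -1.63 to -1.14. A score from the squamous list in place of the 5 genes, added after the data were seen, put 4 arrays above 1, the same ones without dnCREB-PM 3. It used the 19 genes that passed the filter, of which 12 passed only through the high-score arrays. That outcome was thus largely fixed in advance. The tissue from which the RNA came was not tested.

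The label groups, which the score did not use, were compared with limma over all 12 lung arrays, with Benjamini-Hochberg adjustment over 11600 genes at an adjusted p under 0.05. PM against PBS in wild type called 277 genes (2.39%), 227 higher and 50 lower. PM against PBS in dnCREB called 1 (0.00862%), Cpxm2. Between dnCREB and wild type it called 3 under PBS (0.0259%), Uty, Tdgf1 and Angpt2, and 0 under PM (0%), the last with 461 genes at an unadjusted p under 0.05. These 4 genes are named because they are few, after their values were seen. Of the 72 higher genes above, 0 were called in any of the 4 comparisons. In the muscle and squamous lists 0 members were called either. In the wild-type comparison 25 of the 72 had an unadjusted p under 0.05, as did 3051 of all 11600 genes.

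The sizes were large and so were their errors. In wild type, Myh1 averaged 10.32 ± 2.88 (SD, n = 3) under PM and 2.71 ± 0.08 under PBS, a difference of 7.61 ± 2.75 (SE) with a limma adjusted p of 0.1247. Krt4 differed by 6.33 ± 3.00 (adjusted p = 0.2046) and Tnnt3 by 5.34 ± 2.33 (adjusted p = 0.1768) in the same limma fit. The fast contractile list had a median of 5.79 and the squamous list of 2.62, where all tested genes had 0.11. In dnCREB the same lists had medians of -2.52 and -1.34, with Myh1 at -2.82 ± 2.75 and Krt4 at -3.63 ± 3.00 (limma adjusted p = 0.8019 and 0.7479). The interaction of genotype and PM was -10.43 ± 3.89 for Myh1, with a limma adjusted p of 0.8314, so the opposite signs did not pass as a difference. The high-score arrays numbered 0 and 2 of 3 in the wild-type groups and 2 and 1 of 3 in the dnCREB groups, so the signs followed their count. As those arrays were chosen by muscle genes, this was largely fixed in advance for muscle genes. The cause of the differences was not tested.

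**Figure D5:**
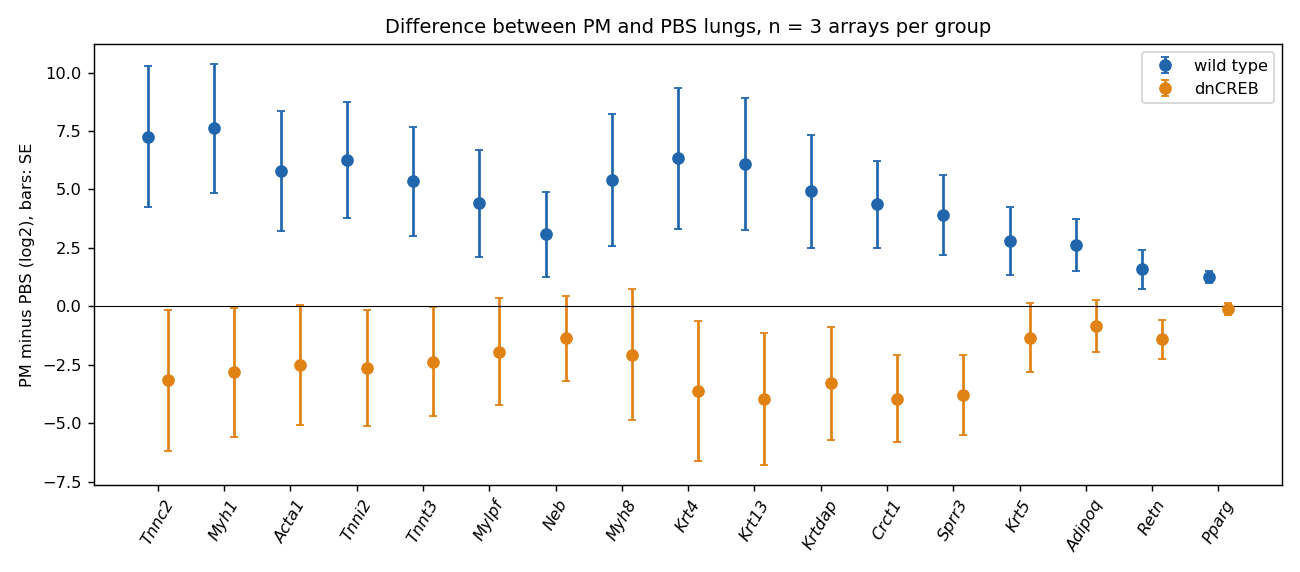
Points give the difference between PM and PBS lungs (y axis, log2; bars are the SE from limma, n = 3 arrays per group) for 17 genes of muscle, squamous epithelium and fat (x axis), in wild type (blue) and dnCREB (orange). Muscle and squamous genes lie above 0 in wild type and below 0 in dnCREB, with bars several units long, and Pparg has the shortest bars.

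One fat gene was called between label groups: Pparg, the master regulator of adipocytes, which alveolar macrophages also express, rose under PM in wild type by 1.26 ± 0.26 (limma adjusted p = 0.0372). Its values were 6.02, 5.94 and 6.24 under PBS and 6.89, 7.66 and 7.44 under PM, with the low-score array WT-PM 3 as high as the others. With the muscle score as a covariate its difference was 1.22 with a limma adjusted p of 0.1364. The call was also lost without any one of WT-PBS 1, WT-PBS 2, WT-PM 2, WT-PM 3, dnCREB-PBS 3 or the 3 dnCREB-PM arrays, with differences of 1.10 to 1.26. Quantile normalization (difference 1.04), no filter and only the groups compared lost it as well. It was kept with the lung-chosen probe set, a filter at 6, arrays centred, array weights or the Xist class as covariate.

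The count of calls in the wild-type comparison depended on how the score was treated and on single arrays. Leaving out 1 array gave 38 calls without WT-PBS 2, 50 without WT-PM 2 and 625 without WT-PM 1. It gave 145 to 169 without WT-PBS 1, any dnCREB-PBS array or dnCREB-PM 2. With the score as a covariate in the limma fit 11 genes passed, all of them among the 277, and all 277 kept their sign. The median size of those 277 differences was 1.34 log2 units with the covariate and 1.38 without, while the median SE went from 0.26 to 0.30. With the 7 low-score arrays alone, where WT-PM 3 was the lone PM array in wild type and was assumed to vary like the others, 4 genes passed: Eif2s3y, Kdm5d, Myh1 and Xist. The call of Myh1 is no test of PM, since these arrays were chosen for low muscle genes and WT-PM 3, with 7.00, stood alone. Eif2s3y, Kdm5d and Xist are sex-linked, and the wild-type groups differed in them: Eif2s3y was at 10.19, 9.24 and 9.58 in WT-PBS and at 3.17, 8.43 and 3.28 in WT-PM.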

How the data were processed

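RNA of 12 lung and 12 left ventricle samples was measured on Affymetrix arrays. Deposited values are in log2 units, 1 per probe set, computed by the authors using GCRMA per the submitters' processing notes (version not given in the sources used here), which corrects background by probe sequence and normalizes between arrays. Array medians ran from 4.09 to 4.19 (lung) and from 3.25 to 3.37 (heart), which points to separate normalization of each tissue. No value was renormalized. Arrays give no counts, and their number limits the precision.

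Of 45037 probe sets, 34945 had 1 gene symbol in the platform annotation, 932 several and 9160 none; the last 2 kinds were left out. Genes over 4 in at least 3 lung arrays were fitted by group in limma 3.58.1 (R 4.3.3), after the script was checked on simulated data. Fold bounds set the high-score mean against 4. A list score is the mean of centred log2 values. Tables and plots used Python 3.11.15, pandas 2.3.3 and matplotlib 3.10.9.

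The arrays, gene lists and comparisons were chosen with earlier results of these data known. Named were the 5 score genes, the 20 largest higher and up to 10 lower genes, up to 6 members per list with the largest difference, up to 4 called members per list, and sex-linked genes. Predicted genes were skipped. Other genes were named after their values were seen. Other settings covered the score, filter, probe set, normalization, array weights, Xist class, replicate block and arrays left out.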

Additional observations from a re-analysis of the deposited data

Results flagged for a closer look

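Among 3432 probe sets with no single gene symbol that exceeded 4 in at least 3 lung arrays, 4 were higher in the high-score arrays by at least 1 log2 unit without overlap, and 0 were lower. They are signal outside the genes compared above, and their part in muscle or epithelium was not tested.

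Uty, a Y-linked gene, had an interaction of genotype and PM of 4.81 log2 units (limma adjusted p = 0.0022). It stood at 8.27, 7.44 and 7.01 in WT-PBS and between 2.53 and 3.38 in the other 9 lung arrays, under the level of 4, and the high-score arrays lay within the latter range. With the Uty probe set brightest in lung alone, the difference under PM in wild type was -1.35 in place of -4.73, and that of dnCREB under PBS -1.65, no longer called, in place of -5.04; the interaction was not tested with it.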

How the results depend on the processing

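The same 5 arrays had high scores under every other choice of score genes, probe sets and normalization tried, except that 2 passed a threshold of 2, 4 passed without Tnnt3 (WT-PM 1 at 0.97) and 4 passed with the squamous list. Higher genes numbered 116 as differences within label groups, and otherwise 53 to 92. Lower genes numbered 20 within label groups, 5 without WT-PBS, and 0 at 2 log2 units, after quantile normalization or with arrays centred. Leaving out single arrays gave 68 to 90 higher and 0 to 2 lower genes.

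For PM in wild type, limma called 277 genes, and 11 with the muscle score as covariate, 4 with low-score arrays only, 450 with all probe sets, 85 with no filter, 24 with only the groups compared, 738 with array weights and 687 with the Xist class as covariate. Leaving out single arrays gave 38 (without WT-PBS 2) to 625 (without WT-PM 1). For PM in dnCREB, in place of 1 it called 3 with the muscle score, 234 with all probe sets, 1772 with array weights, and 0 with low-score arrays only, the replicate block, no filter, a filter at 6, quantile normalization or arrays centred. Leaving out single arrays gave 0 to 1. For dnCREB under PBS, in place of 3 it called 1 with the muscle score, the lung-chosen probe set or a filter at 6, 5 with all probe sets, 172 with array weights, and 1 to 7 without single arrays. Under PM it called 0 in every setting. The causes were not tested.

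The replicate block gave 186 calls for PM in wild type, and Pparg lost its call with it. Replicate numbers did not pair the samples: deviations of same-numbered arrays correlated from -0.33 to 0.33, over 0.1 in 4 of 18 pairs.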

Other observations

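One high-score array, dnCREB-PBS 1, showed genes of further tissues far above their level in the other 11 lung arrays. The genes were picked after their values were seen, as those at least 2 log2 units above every other lung array, of which dnCREB-PBS 1 had 17. Ucp1, the uncoupling protein of brown fat, stood at 10.29, against at most 3.59 elsewhere. Cidea, a lipid droplet protein of brown fat, stood at 9.76 against at most 6.63, and Thrsp, a regulator of fat synthesis, at 11.97 against at most 8.85. Of the brown fat list, Dio2 was at 3.65 there, with 2.82 to 8.38 in the other lung arrays, and Otop1, Elovl3, Zic1 and Lhx8 were under 4 in all 12. Rag1, which rearranges antigen receptor genes in developing lymphocytes, had 9.16 against at most 2.64, and Prss16, a protease of the thymus cortex, 6.22 against at most 2.50. Ccl25, a thymus and gut chemokine, had 7.13 against at most 4.24, and Cd8b1 had 7.82 against at most 5.61. Corin and Mybphl, genes of heart atrium among others, had 7.43 and 6.71 against at most 4.49 and 4.39. In the thymus list Ptcra, Dntt and Foxn1 remained under 4 there.

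The count of such genes differed between arrays without following the score: 29 in WT-PBS 1, a low-score array, 20 in WT-PM 2, 5 in WT-PM 1, 4 in dnCREB-PM 3, 2 each in WT-PBS 3, WT-PM 3 and dnCREB-PBS 3, and 0 in the other 4. In dnCREB-PBS 3 they were Pvalb and Myh2, both of skeletal muscle. In WT-PM 2 they included Lypd3 (6.06 against at most 3.16) and Alox12b (5.09 against at most 2.68), genes of upper squamous layers. In WT-PBS 1 they included the proliferation genes Cdk1 (6.72 against at most 4.21) and Tk1 (4.71 against at most 2.11).

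Nppa, the atrial natriuretic peptide, was between 10.89 and 11.75 in all 6 PM lungs and at 13.83 in dnCREB-PBS 1, against 4.93 to 7.64 in the other 5 PBS lungs. Its difference under PM in wild type was 4.98 ± 1.58 (SE), with a limma adjusted p of 0.0975.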
